A study of Drosophila melanogaster with 12 samples.

Results

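The comparison described here adds double-stranded RNA (dsRNA) against Pc and ph to Kc167 cells that also received PTIP dsRNA. It sets the 3 arrays titled dsPc/ph+PTIP against the 3 titled dsPTIP, which are 6 of the 12 arrays of the series. The 6 arrays were chosen by title alone, and all 18769 probe sets that are not array controls were used. RNA from each sample was read on an Affymetrix Drosophila array. The cells of the first group, called Pc/ph+PTIP below, were meant to lose PTIP, Polycomb (Pc) and polyhomeotic (ph), and those of the second, called PTIP, to lose PTIP only. PTIP dsRNA is thus common to both. A further pair of groups with 3 arrays each, Pc/ph dsRNA (Pc/ph) and cells alone (control), shows the same step without PTIP dsRNA and shares no array with the comparison. The labels do not say whether cells alone received a mock dsRNA. Every dsRNA well received 15 µg of dsRNA per 1000000 cells, serum was added to 5% after 1 hour, and RNA was taken after 6 days. The labels do not say how the 15 µg was divided among several dsRNAs. All arrays come from a single cell line, and the labels do not say whether replicates were separate cultures. The p-values thus measure only the spread left between these samples after an offset shared by each replicate number is removed.

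Pc and ph are core subunits of Polycomb repressive complex 1, which binds histone H3 methylated at lysine 27 through the chromodomain of Pc and keeps developmental regulators silent in cells where they are not used. PTIP is a BRCT-domain protein found with histone H3 lysine 4 methyltransferases of the Trithorax-related type, which act on active genes. The series addresses how PTIP bears on Polycomb repression, and the comparison asks which genes are released by Pc/ph dsRNA where PTIP dsRNA is present as well. Kc167 is a female embryonic line with features of hemocytes, the blood cells of the fly.

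The values are log2 signals after robust multi-array averaging (RMA). Each difference below is a log2 difference with its standard error (SE) from a limma fit that holds the replicate number as a block. In the fit of all arrays n = 3 arrays per group, and fits without 1 replicate number have 2 arrays per group. Calls were made where the adjusted p was under 0.05. The replicate 1 arrays of all 4 groups stood apart from the others, with upper quartiles of 8.65 to 8.95 against 9.62 to 9.74, and the block absorbs that offset. Between the groups compared, 149 probe sets differed by at least 2-fold in replicate 1, 19 in replicate 2 and 32 in replicate 3. Genes of the Y chromosome, absent from a female line, are read by 9 probe sets, which reached at most 5.57 on any array, and that value is used below as the upper edge of background. Of 17 hemocyte markers 14 lay above it on all 6 arrays, among them Hml, a hemolectin, and srp, a GATA factor of blood cells. The exception that lay below it on all 6 was lz, the crystal cell factor. The sum of log2 signals over the 17 markers was 157.9 to 176.6 in Pc/ph+PTIP cells and 158.8 to 174.4 in PTIP cells. Germline vas, piwi and osk, neuronal fne, muscle up and Tm2, and fat body Yp1 were at background on all 6 arrays. Of the measured markers, 3 of 6 germline and 3 of 5 neuronal ones lay above background on all 6 arrays. So did 1 of 4 muscle, 1 of 5 fat body and 5 of 5 epithelial markers. In RNA from whole wells, fewer cells of a type and less RNA per cell cannot be told apart.

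Pc was lower in Pc/ph+PTIP than in PTIP cells in each pair, but much of its signal remained. It stood at 7.24, 8.86 and 8.98 in Pc/ph+PTIP replicates 1, 2 and 3, against 7.72, 9.77 and 9.63 in the PTIP replicates. In same-numbered pairs this left 71.8, 53.1 and 63.6% of the PTIP level. The fitted difference of -0.68 ± 0.20 was not called (adjusted p = 1), and it was called in replicates 2 and 3 alone (adjusted p = 0.00655). In Pc/ph cells Pc stood at 6.18, 6.96 and 7.18, against 8.38, 9.46 and 9.47 in control cells, so 21.8, 17.8 and 20.3% remained. The difference between these responses, the interaction, was 1.65 ± 0.28 and just missed the threshold (adjusted p = 0.0657). Ptip, the gene targeted in both groups, read 7.15, 8.06 and 8.41 in Pc/ph+PTIP cells, against 7.44, 8.34 and 7.82 in PTIP cells. These ranges overlap, and the fitted difference was 0.01 ± 0.21, with a 95% interval from -0.46 to 0.48. Ptip read 8.16, 8.52 and 8.26 in control cells, and PTIP against control gave -0.45 ± 0.21, which limma did not call (adjusted p = 0.296). The Pc/ph+PTIP array of replicate 3 had the highest Ptip signal of the 6 and lay above its control array, against its label, so the results are also given without it. Groups are called by their dsRNA for this reason, since loss of Ptip RNA was not shown at the threshold. No level is given for ph-p or ph-d, which were not analysed here. The plot of signal on all arrays shows both targeted genes beside the main responders.

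**Figure D1:**
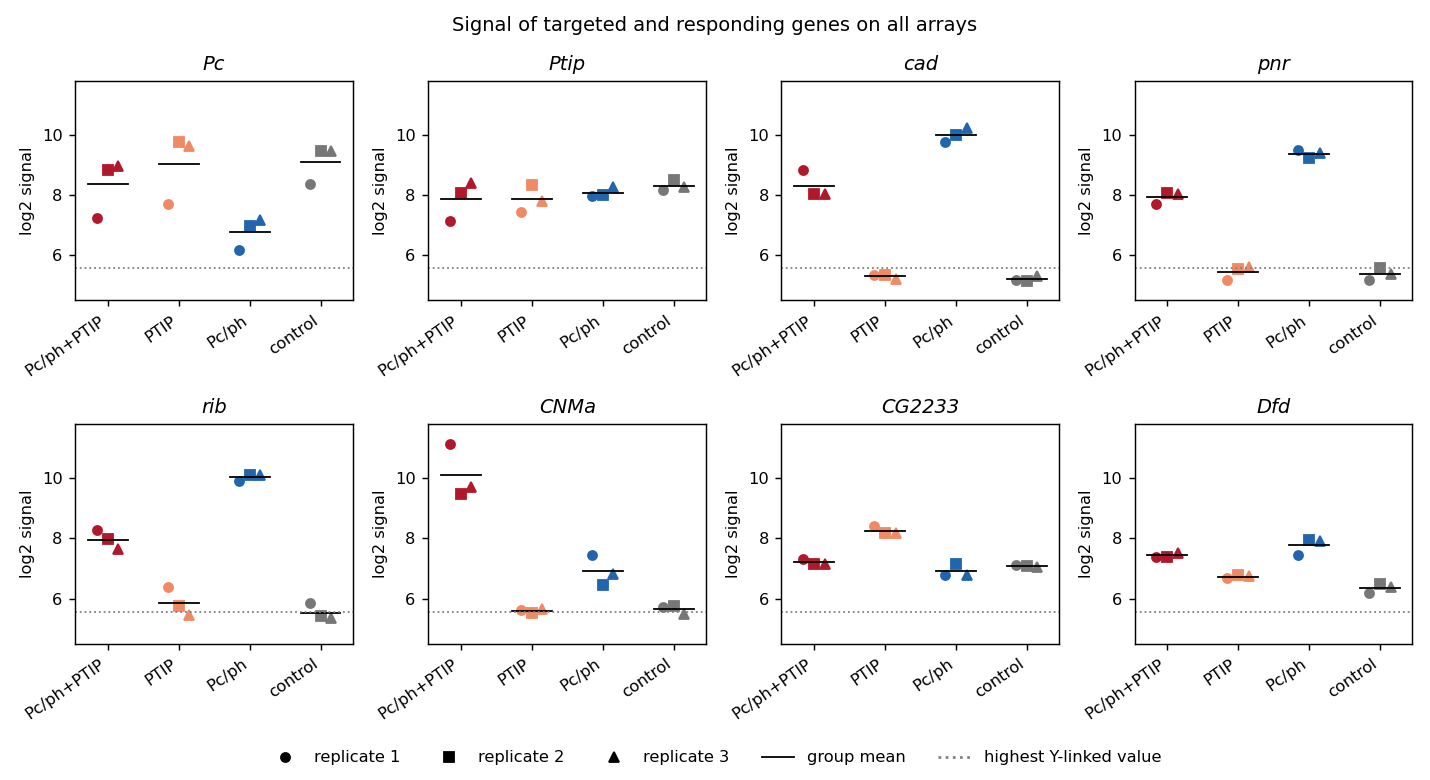
Log2 signal (vertical axis) of Pc, Ptip, cad, pnr, rib, CNMa, CG2233 and Dfd in Pc/ph+PTIP, PTIP, Pc/ph and control cells. Each symbol is 1 array, its shape gives the replicate number, bars are means of 3 arrays and the dotted line is the highest Y-linked value, 5.57. The cad and pnr signals of Pc/ph+PTIP cells lie between those of PTIP cells and those of Pc/ph cells.

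Adding Pc/ph dsRNA to cells given PTIP dsRNA raised 4 genes (0.0334% of those tested) and lowered 1 (0.00835%) at the threshold. The risers were the patterning genes cad, pnr and rib and the neuropeptide gene CNMa, and the faller was CG2233. At the level of probe sets 6 of 18769 were called, 0.032% of those tested, and 778 had an unadjusted p under 0.05. Among the 11982 genes with 1 symbol, 5 were called, or 0.0417%.

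The homeobox gene cad, known for posterior patterning of the embryo, read 8.84, 8.05 and 8.04 in Pc/ph+PTIP cells, against 5.35, 5.34 and 5.21 in PTIP cells. The PTIP values lie in the background range and those of the other group far above it, so the fitted rise of 3.01 ± 0.20 (adjusted p = 0.000153) is set against background rather than a measured PTIP level, and no fold is given. The GATA factor gene pnr, which patterns dorsal tissue, read 7.71, 8.09 and 8.05, against 5.19, 5.54 and 5.61. Its 3 pair differences, 2.53, 2.55 and 2.45, were the most alike of the 4 risers, and the fitted rise was 2.51 ± 0.13 (adjusted p = 4.50e-05). The BTB-domain transcription factor gene rib, which acts in tracheal and salivary gland morphogenesis, read 8.28, 7.98 and 7.63 in Pc/ph+PTIP cells, against 6.39, 5.76 and 5.44 in PTIP cells. It rose by 2.10 ± 0.17 (adjusted p = 0.00098), with no overlap between the groups.

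CNMa encodes the precursor of a neuropeptide of the CNMamide type. It read 11.15, 9.49 and 9.72 in Pc/ph+PTIP cells, against 5.61, 5.52 and 5.65 in PTIP cells, a rise of 4.53 ± 0.28 over values at the edge of background (adjusted p = 0.000143). This was the largest change among all genes measured. The pair differences were 5.54, 3.96 and 4.07, highest in replicate 1. In Pc/ph cells CNMa read 7.45, 6.45 and 6.80, against 5.71, 5.74 and 5.48 in control cells, a difference of 1.26 ± 0.28 that was not called (adjusted p = 0.0634). The interaction of 3.26 ± 0.40 was called (adjusted p = 0.0114), so CNMa responded more to Pc/ph dsRNA where PTIP dsRNA was present.

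CG2233, known here by its gene number only, was the single gene called lower. It read 7.31, 7.16 and 7.15 in Pc/ph+PTIP cells, against 8.40, 8.19 and 8.19 in PTIP cells, a difference of -1.05 ± 0.10 (adjusted p = 0.00474). Its levels in Pc/ph cells, 6.79, 7.16 and 6.80, and in control cells, 7.11, 7.10 and 7.05, lay close to those of Pc/ph+PTIP cells, so the PTIP arrays are the high ones. The sixth called probe set is assigned to several genes by the platform annotation and is therefore not named. It rose by 1.63 ± 0.18 (adjusted p = 0.00895).

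All 6 probe sets were also called in the fit without the replicate block. The CG2233 call was lost without Pc/ph+PTIP replicate 2 (adjusted p = 0.0594) and without Pc/ph+PTIP replicate 3 (adjusted p = 0.0561). The 4 risers were called without that array of replicate 3, at 3.18 ± 0.21 for cad, 2.49 ± 0.16 for pnr, 2.18 ± 0.20 for rib and 4.69 ± 0.33 for CNMa, while CG2233 and the unnamed probe set were not. Without replicate 2 in all 4 groups the calls of cad, rib and CG2233 were lost (adjusted p = 0.0724, 0.311 and 0.109). Without replicate 3 those of rib and CG2233 were lost (adjusted p = 0.0694 and 0.806).

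The genes next to the 4 risers in the gene table were not called. The genes measured on either side of cad, dia and Pomp, differed by 0.41 ± 0.19 and 0.07 ± 0.07. Beside pnr, the GATA factor gene GATAe and Jhbp4 differed by -0.09 ± 0.07 and -0.02 ± 0.10, and GATAe stayed at background in both groups. Beside rib, tbrd-2 and CG11906 differed by -0.09 ± 0.07 and 0.09 ± 0.10. Beside CNMa, Cpr62Bc and CG12024 differed by 0.10 ± 0.10 and 0.15 ± 0.11.

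The response can be read against the genes that Pc/ph dsRNA changed without PTIP dsRNA. Pc/ph against control called 110 genes higher, 0.918% of those tested, and 130 lower, 1.08%. Of the 110, 100 were higher in Pc/ph+PTIP than in PTIP cells and 77 were higher in all 3 pairs, against 10.3% of all genes. Only cad, pnr and rib of these passed the test. The median difference over the 110 was 0.34 in cells given PTIP dsRNA and 1.04 in the comparison of Pc/ph with control, beside -0.002 and -0.0006 over all genes. For 109 of the 110, all but the heat shock gene Hsp68, the difference was smaller in cells given PTIP dsRNA. The 110 were chosen for their size in Pc/ph against control, so part of that gap can follow from the choice, and the interaction test below is the comparison of responses. Of the 3 genes called higher in both, Pc/ph against control gave 4.79 ± 0.20 for cad, 3.998 ± 0.13 for pnr and 4.52 ± 0.17 for rib. As a share of each list, these 3 are 3 of the 4 genes called higher here and 3 of the 110. Pc/ph against control called 287 probe sets, 1.53% of those tested. Leaving out Pc/ph replicate 2 or 3 gave 150 or 154, and leaving out control replicate 2 or 3 gave 134 or 172. The plot of both responses shows nearly all risers below the line of equal response.

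**Figure D2:**
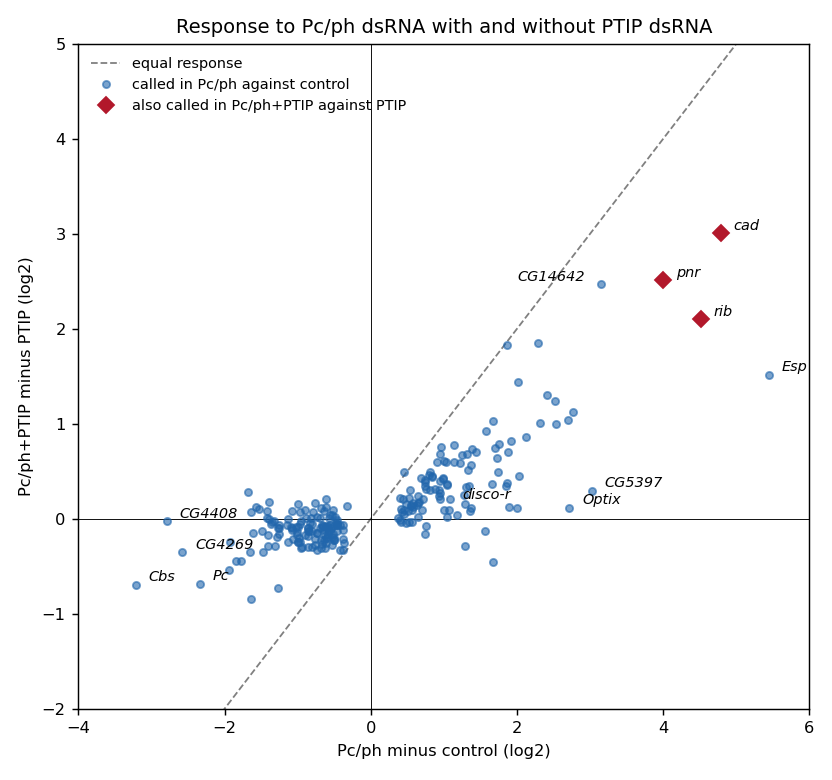
Log2 difference Pc/ph+PTIP minus PTIP (vertical axis) against Pc/ph minus control (horizontal axis) for the 240 genes called in Pc/ph against control. Each point is a gene, red diamonds are the 3 genes called in both comparisons and the dashed line marks equal differences. Of the 110 genes on the right, 100 lie above 0 and 109 lie below the dashed line.

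Polycomb-target developmental regulators made up 21 of the 110. Of 129 measured, 3 rose and 0 fell in Pc/ph+PTIP against PTIP cells, with a median of 0.01 over the list. Over all genes 0.0334% were called higher and 0.00835% lower in that comparison. In Pc/ph against control 21 of the 129 rose and 0 fell, against 0.918% and 1.08% of all genes. These 21 had a median difference of 0.43 in cells given PTIP dsRNA and of 1.89 in the other comparison. Of them 18 were higher in all 3 pairs, against 10.3% of all genes. The mean signal was at or below the background edge for 8 of the 21 in Pc/ph+PTIP cells and for 12 in PTIP cells, against 1 in Pc/ph cells and 15 in control cells.

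Several of the 21 lay between the strong and the silent. The BTB factor gene bab2 read 11.10, 9.26 and 9.34 in Pc/ph+PTIP cells, against 8.86, 8.23 and 8.31 in PTIP cells, a difference of 1.44 ± 0.34 with no overlap (adjusted p = 0.612). The head gap gene oc read 7.57, 5.67 and 5.70, against 5.50, 5.09 and 5.22 (1.04 ± 0.32, adjusted p = 1). Replicate 1 gave the high oc value, and the other Pc/ph+PTIP arrays lay near background. The trunk selector gene tsh read 6.96, 6.29 and 6.50, against 5.26, 5.79 and 5.68 (1.01 ± 0.25, adjusted p = 0.704). The Iroquois homeobox gene mirr read 8.89, 6.37 and 6.27, against 7.21, 5.86 and 5.90 (0.86 ± 0.27, adjusted p = 1), and its groups overlap, with PTIP replicate 1 high. A second mirr probe set gave 1.48 ± 0.45, which was not called either. Psc, which encodes a subunit of Polycomb repressive complex 1, read 8.92, 8.75 and 8.78, against 7.58, 8.40 and 8.01 (0.82 ± 0.18, adjusted p = 0.468). All 3 Psc values of Pc/ph+PTIP cells were above those of PTIP cells. None of these 5 genes was called over all replicates, and none had a called interaction. Without replicate 1, bab2 was called (1.04 ± 0.13, adjusted p = 0.00782).

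Others of the 21 stayed at or near background in Pc/ph+PTIP cells. The zinc-finger gene disco-r, a paralog of disco in the adjacent position, read 5.45, 5.09 and 5.02 in Pc/ph+PTIP cells and 5.08, 5.09 and 5.05 in PTIP cells, and the groups overlap. In Pc/ph cells it read 7.46, 7.08 and 6.87, against 5.18, 5.12 and 5.11 in control cells. Its interaction was -1.88 ± 0.15 (adjusted p = 0.00136), while a second, dimmer disco-r probe set gave -0.08 and was not called. For disco the arrays read 5.57, 4.82 and 4.92 in Pc/ph+PTIP cells and 4.80, 4.82 and 4.57 in PTIP cells, and the interaction was -1.49 ± 0.19 (adjusted p = 0.0156). Replicate 1 of Pc/ph+PTIP lay at the background edge for disco and the other 5 arrays below it. The zinc-finger gene peb, which acts in retina and trachea, read 5.76, 5.43 and 5.43, against 5.17, 5.10 and 5.32, with an interaction of -1.50 ± 0.12 (adjusted p = 0.00136). The paired-type gene gsb-n read 4.62, 4.99 and 5.09, against 4.59, 5.07 and 4.92, with an interaction of -1.14 ± 0.18 (adjusted p = 0.0442). The eye and head homeobox gene Optix read 6.02, 5.78 and 5.83, against 5.98, 5.66 and 5.64, but 9.91, 7.38 and 7.54 in Pc/ph cells. Its interaction of -2.60 ± 0.63 was not called (adjusted p = 0.327), and the spread between the Pc/ph arrays was wide.

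Besides regulators, Esp, a gene of the sulfate transporter family, read 9.10, 8.02 and 8.10 in Pc/ph+PTIP cells, against 6.47, 7.10 and 7.09 in PTIP cells. The difference of 1.52 ± 0.26 was not called over all replicates (adjusted p = 0.199), although the groups do not overlap, and it was called without replicate 1, at 0.96 ± 0.07 (adjusted p = 0.000339). Esp read 11.59, 11.35 and 11.33 in Pc/ph cells, against 5.94, 5.98 and 6.02 in control cells, and had the largest interaction of all called genes, -3.93 ± 0.37 (adjusted p = 0.00299). CG14642 read 10.43, 8.30 and 8.18, against 6.77, 6.34 and 6.39 (2.47 ± 0.44, adjusted p = 0.205). Its second probe set gave 1.58 ± 0.50. CG14642 was called without replicate 1 (1.87 ± 0.10, adjusted p = 2.67e-05) and with only the 6 arrays in the fit (adjusted p = 0.0203). The endosome adaptor gene nuf read 8.14, 7.14 and 7.01, against 6.50, 6.15 and 5.92 (1.24 ± 0.21, adjusted p = 0.201), while its other probe set gave 0.07 ± 0.23. It too was called without replicate 1 (1.04 ± 0.08, adjusted p = 0.000432) and with only the 6 arrays (adjusted p = 0.00693). The imaginal disc growth factor genes Idgf1 and Idgf2 differed by 1.85 ± 0.47 and 0.999 ± 0.49. Replicate 1 gave larger differences, 3.26 and 1.97, than the other replicates. The sleep regulator gene wake differed by 1.30 ± 0.38, with pair differences of 2.48, 0.61 and 0.82. Over all replicates the growth factor genes and wake were not called (adjusted p = 0.704, 1 and 1). Without replicate 1 all 3 were called, at 1.14 ± 0.15 for Idgf1, 0.52 ± 0.08 for Idgf2 and 0.72 ± 0.11 for wake (adjusted p = 0.0137, 0.0344 and 0.0342).

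The interaction asks where the response to Pc/ph dsRNA in cells given PTIP dsRNA differs from that in cells without PTIP dsRNA. It called 29 genes, or 0.242%, and 35 probe sets, 0.186%. Of the 29, 13 were higher in Pc/ph than in control cells and 16 lower, and these directions were called there for all but CNMa. Among the 13, 12 differed less in cells given PTIP dsRNA, with CNMa the exception, and the median difference was 0.38 there against 1.84. All 16 of the others differed less too, with a median of -0.06 against -1.37. The 29 genes were chosen because their responses differed, so the size of these gaps follows in part from that choice. The Pc level moved with this contrast, since a larger share of Pc signal remained in Pc/ph+PTIP cells than in Pc/ph cells, and its part in the interaction was not tested.

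Among the 13 genes with a called interaction that were higher in Pc/ph than in control cells were the risers rib, cad and pnr. Their interactions were -2.41 ± 0.24 for rib (adjusted p = 0.00462), -1.78 ± 0.28 for cad (adjusted p = 0.0413) and -1.49 ± 0.18 for pnr (adjusted p = 0.0114). The virus-induced gene vir-1 read 7.43, 8.94 and 8.87 in Pc/ph+PTIP cells, against 6.60, 8.47 and 8.26 in PTIP cells, and the interaction was -1.10 ± 0.17 (adjusted p = 0.0473). Drat, a regulator of cell death related to alcohol dehydrogenases, read 11.86, 12.71 and 12.73, against 12.05, 12.82 and 12.80, with no difference beyond its SE (-0.12 ± 0.14). Drat read 10.49, 11.61 and 11.39 in Pc/ph cells, against 8.57, 10.14 and 10.10 in control cells, and its interaction was -1.68 ± 0.20 (adjusted p = 0.0114). Both PTIP dsRNA groups thus lay above every Pc/ph array for Drat.

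The 16 genes lowered by Pc/ph dsRNA without PTIP dsRNA include enzymes of metabolism. Cbs encodes cystathionine beta-synthase of the transsulfuration pathway. It read 11.30, 11.72 and 11.75 in Pc/ph+PTIP cells, against 12.28, 12.18 and 12.41 in PTIP cells, a difference of -0.70 ± 0.25 that was not called (adjusted p = 1). In Pc/ph cells Cbs read 9.38, 8.88 and 8.78, against 12.94, 11.99 and 11.75 in control cells, and the interaction was 2.51 ± 0.36 (adjusted p = 0.0257). Cbs was lowest on the Pc/ph arrays, and every Pc/ph+PTIP array lay below every PTIP array. Kank was also lowest on the Pc/ph arrays. It encodes an ankyrin-repeat protein of muscle attachment sites in the fly and read 9.77, 10.02 and 10.05 in Pc/ph+PTIP cells and 9.32, 9.91 and 10.07 in PTIP cells. Kank read 8.49, 8.74 and 8.97 in Pc/ph cells, against 9.94, 10.29 and 10.15 in control cells, and its interaction was 1.57 ± 0.15 (adjusted p = 0.00299). Its 3 other probe sets averaged 4.83 to 5.54, at background, and had no called interaction. The transcription factor gene fru, known for male courtship, read 9.04, 9.57 and 9.73, against 9.11, 9.84 and 9.91, while in Pc/ph cells it read 7.45, 8.47 and 8.60, against 9.03, 9.94 and 9.77 in control cells. Another fru probe set also had a called interaction, 1.17 (adjusted p = 0.0108), and the remaining 5 did not.

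Other members of the 16 were already low in PTIP cells. In PTIP against control, 10 of the 16 were also called lower and 1 was called higher. The gluconeogenic enzyme gene fbp read 8.67, 9.08 and 9.18 in Pc/ph+PTIP cells and 8.32, 9.11 and 9.18 in PTIP cells, beside 8.62, 9.43 and 9.70 in Pc/ph cells and 9.93, 11.29 and 11.13 in control cells. Only the control arrays are high for fbp, and the interaction was 1.64 ± 0.21 (adjusted p = 0.0143). The kinase gene Mos, known from oocyte meiosis, read 7.28, 7.17 and 7.15 in Pc/ph+PTIP cells and 7.43, 7.42 and 7.27 in PTIP cells, beside 7.51, 7.29 and 7.28 in Pc/ph cells and 8.52, 8.43 and 8.14 in control cells. CG4269 read 5.33, 6.90 and 6.80 in Pc/ph+PTIP cells and 5.80, 7.29 and 6.99 in PTIP cells, beside 5.56, 6.74 and 6.69 in Pc/ph cells and 7.84, 9.57 and 9.31 in control cells, with an interaction of 2.23 ± 0.14 (adjusted p = 0.000406). In all 3 of these genes the 3 dsRNA groups lay below the control arrays of the same number. The maltase gene Mal-A5 lay between, with 7.19, 7.29 and 7.51 in Pc/ph+PTIP cells and 7.22, 7.43 and 7.54 in PTIP cells, beside 6.62, 6.78 and 6.50 in Pc/ph cells and 7.96, 7.84 and 7.86 in control cells.

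The interaction calls changed with single arrays. Leaving out Pc/ph+PTIP replicate 2 or 3 turned the count of 35 probe sets to 16 or 9, and leaving out PTIP replicate 2 or 3 turned it to 14 or 20. Leaving out Pc/ph replicates 1, 2 or 3 gave 80, 17 or 21, and leaving out control replicate 2 gave 14. The calls of Esp, rib, disco-r, peb, Kank, CG4269, CG44251 and l(1)G0469 held in each of the 12 fits that left out 1 array, while that of Cbs held in 4, gsb-n in 3 and cad and vir-1 in 2 each. Without the replicate block 1 probe set was called, and without replicate 2 or 3 in all groups limma called 0, with 517 and 496 at an unadjusted p under 0.05.

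**Figure D3:**
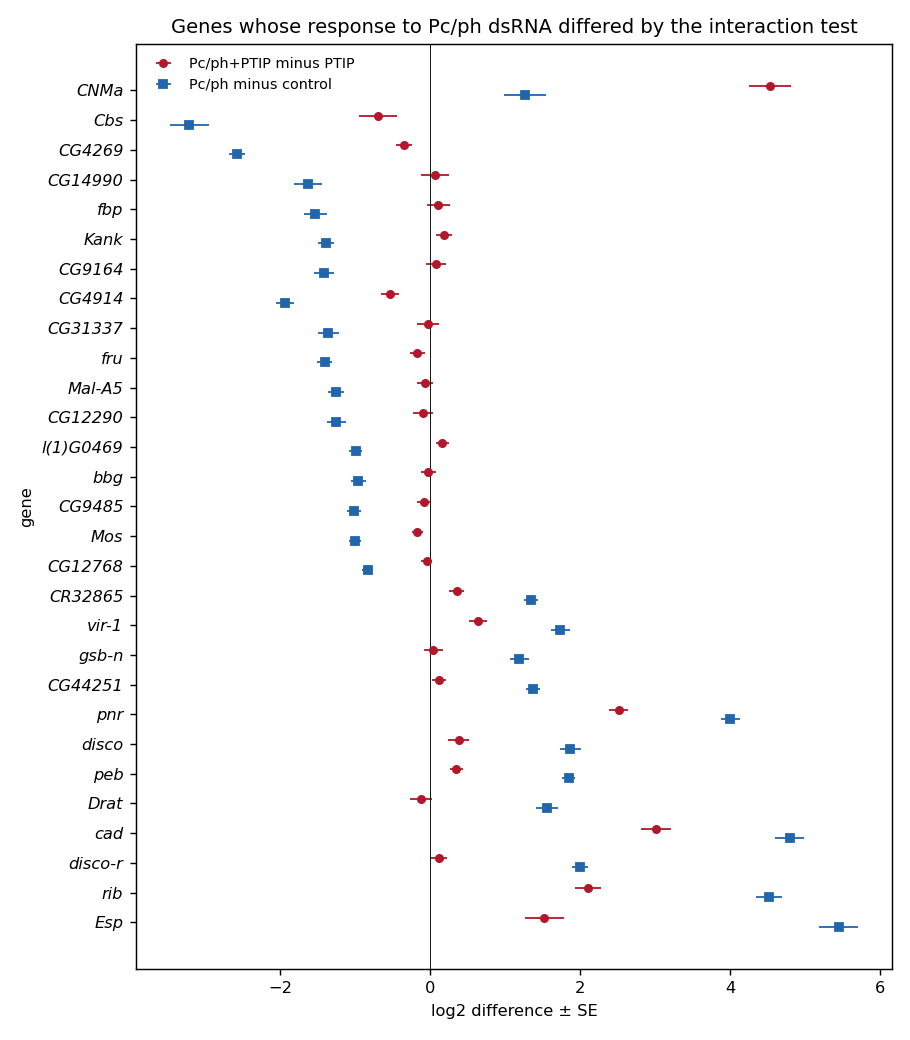
Log2 difference ± SE (horizontal axis) of the 29 genes with a called interaction, ordered by the interaction from CNMa at the top to Esp at the bottom. Red circles are Pc/ph+PTIP minus PTIP and blue squares Pc/ph minus control (n = 3 arrays per group). CR32865 stands for the long noncoding RNA alphagamma-element. Except for CNMa, the red circles lie nearer 0 than the blue squares.

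Replicates 2 and 3 were also fitted without replicate 1, which leaves 2 arrays per group. The genes named from this fit were chosen after their values were seen. It called 35 genes higher, 0.292%, and 18 lower, 0.15%. In replicate 1, which this fit does not use, 34 of the 35 and 11 of the 18 had the same sign, against 52.9% of all genes. For 38 of these 45 genes the difference was larger in replicate 1.

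Among the 35, ap, the LIM-homeobox selector of dorsal wing fate, read 7.01, 7.43 and 7.40 in Pc/ph+PTIP cells, against 6.22, 5.89 and 6.03 in PTIP cells. It differed by 1.46 ± 0.09 in replicates 2 and 3 (adjusted p = 9.59e-05), and its other probe set by 0.75 ± 0.23 over all replicates. The Hedgehog pathway transcription factor gene ci read 8.05, 7.65 and 7.58, against 5.28, 6.45 and 6.06, a difference of 1.36 ± 0.16 in replicates 2 and 3 (adjusted p = 0.00632). For ci the difference Pc/ph minus control was 1.87 ± 0.32, and the interaction was -0.04 ± 0.45, with a 95% interval from -1.05 to 0.97. The multivitamin transporter gene Smvt read 8.60, 7.57 and 7.86, against 6.01, 6.32 and 6.39 (1.35 ± 0.11, adjusted p = 0.000617), and fng, a glycosyltransferase that modifies Notch, read 9.63, 8.22 and 8.66, against 7.53, 7.70 and 7.73 (0.72 ± 0.11, adjusted p = 0.0233). Smvt read 5.45, 6.19 and 6.05 in Pc/ph cells, against 5.28, 6.08 and 5.92 in control cells. For fng the values were 5.91, 6.27 and 6.30 in Pc/ph cells, against 6.10, 6.28 and 6.42 in control cells, so both genes differed little there. The interactions of Smvt and fng were not called in the fit of all arrays (adjusted p = 0.369 and 0.646).

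Pepck1, the phosphoenolpyruvate carboxykinase of gluconeogenesis, read 13.27, 12.20 and 11.96 in Pc/ph+PTIP cells, against 9.93, 10.75 and 10.60 in PTIP cells. It differed by 1.40 ± 0.10 in replicates 2 and 3 (adjusted p = 0.000224), and control cells read 11.75, 12.66 and 12.64. The PTIP array was the lowest of these groups in every replicate number. The neighbouring genes bero and CG9338, both of the Ly6 family, differed by 1.37 ± 0.10 and 0.72 ± 0.12 in replicates 2 and 3 (adjusted p = 0.000224 and 0.0381). Dfd and Ama, which lie next to each other in the gene table, were both among the 35. Ama encodes an adhesion protein with immunoglobulin domains and differed by 0.64 ± 0.09 (adjusted p = 0.0194).

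Among the 11 lower genes with the same sign in replicate 1, several were at their highest in PTIP cells. Gnmt, a glycine N-methyltransferase, read 12.84, 12.25 and 12.36 in Pc/ph+PTIP cells, against 13.33, 12.82 and 12.92 in PTIP cells and 11.39, 11.28 and 11.12 in control cells. The polarity gene baz read 7.41, 7.97 and 8.12, against 8.02, 8.65 and 8.57 in PTIP cells and 7.37, 7.33 and 7.31 in control cells. For both genes the PTIP array was the highest of each replicate number. The dopa decarboxylase relative amd differed by -0.55 ± 0.09 in replicates 2 and 3 (adjusted p = 0.0342), and the extracellular matrix gene Kal1 by -1.15 ± 0.11 (adjusted p = 0.0018).

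**Figure D4:**
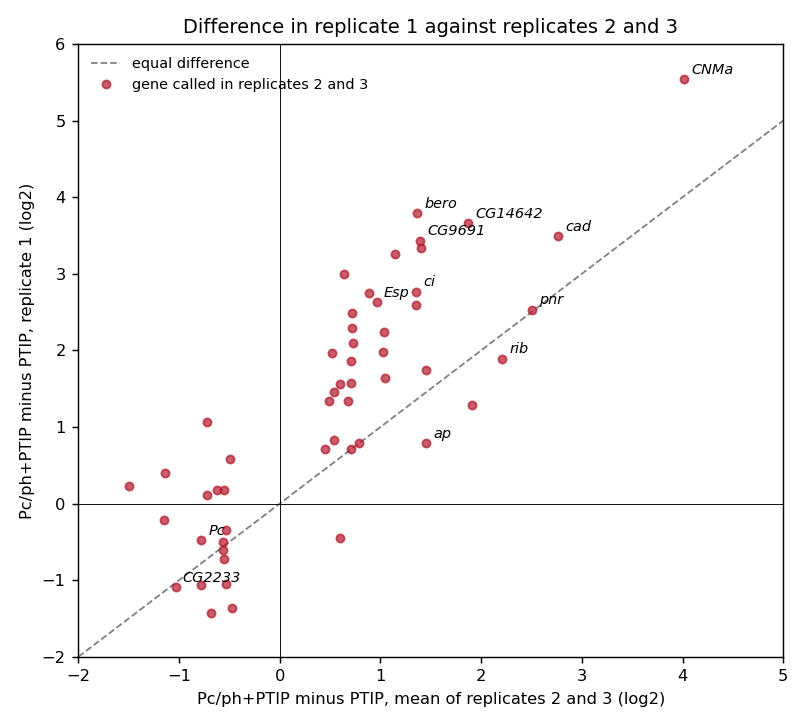
Log2 difference Pc/ph+PTIP minus PTIP in replicate 1 (vertical axis) against the mean of replicates 2 and 3 (horizontal axis) for the 53 genes called in replicates 2 and 3. Each point is a gene and the dashed line marks equal differences. Of the 53 genes, 45 have the same sign on both axes, and 38 of these are farther from 0 in replicate 1.

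Of 8 Hox genes listed, 4 were matched to a probe set with 1 symbol, and none of these was called. The others were not examined. Dfd, which specifies head segments, read 7.38, 7.40 and 7.53 in Pc/ph+PTIP cells, against 6.67, 6.77 and 6.74 in PTIP cells, with no overlap. Its difference of 0.71 ± 0.10 fell just short of the threshold (adjusted p = 0.0507) and was called in replicates 2 and 3 alone (adjusted p = 0.00522). In Pc/ph against control Dfd rose by 1.44 ± 0.10, and the interaction of -0.73 ± 0.13 was not called (adjusted p = 0.102). Antp read 6.51, 5.04 and 5.12, against 5.12, 5.05 and 4.85, above background in replicate 1 of Pc/ph+PTIP only, and its other probe sets gave 0.26 ± 0.15 and -0.09 ± 0.08. The signals of pb and Scr were below the background edge on all 6 arrays.

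The remaining gene lists held no called gene in this comparison, apart from CNMa among 33 neuropeptide and receptor genes. They are described by direction over the 3 same-numbered pairs, with 10.3% of all genes higher and 15.8% lower in every pair. Insulin and TOR pathway genes were higher in every pair for 8 of 18, with the largest differences in ImpL2, a secreted insulin antagonist (0.60 ± 0.16), and the insulin receptor gene InR (0.55 ± 0.18). Against control cells, ImpL2 differed by -1.50 ± 0.16 in PTIP cells (limma adjusted p = 0.00111) and by -0.10 ± 0.16 in Pc/ph cells. InR differed from control by -0.21 ± 0.18 in PTIP cells and by 0.44 ± 0.18 in Pc/ph cells, neither called. Of 30 epithelial and septate junction markers 12 were higher and 1 lower in every pair, with the apical polarity gene crb at 1.10 ± 0.49. Its pair differences were 1.997, 0.32 and 0.998, largest in replicate 1. Hemocyte markers were higher in every pair for 18 of 49 and lower for 2, with a list median of 0.07. Notch pathway genes were higher for 9 of 25, with Gp150, a transmembrane leucine-rich repeat protein, at 0.39 ± 0.12. Gp150 differed from control by -1.08 ± 0.12 in PTIP cells (limma adjusted p = 0.00118) and by -0.03 ± 0.12 in Pc/ph cells. JAK/STAT genes were higher for 5 of 15, with the BTB factor gene chinmo at 0.54 ± 0.20. In these 5 lists the medians ran from 0.07 to 0.17, and no member passed limma's threshold in Pc/ph+PTIP against PTIP.

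Further lists differed in direction. Amino acid and one-carbon metabolism genes were lower in every pair for 11 of 37 and higher for 4, with a median of -0.04. DNA damage and repair genes were lower for 8 of 35 and higher for 1, with the p53 regulator gene Corp at -0.32 ± 0.21. Cell cycle and DNA replication genes were higher for 1 of 33 and lower for 4, both below the shares over all genes. Trithorax group and H3K4 methyltransferase genes gave a median of 0.05 over 33, with the largest differences in trx (0.38 ± 0.23) and wds (-0.27 ± 0.13). RNA interference genes gave a median of 0.01 over 12, with Dcr-2, the nuclease that cuts long dsRNA, at 0.14 ± 0.17. Against control cells, Dcr-2 differed by -0.89 ± 0.17 in PTIP cells (limma adjusted p = 0.0132) and by 0.21 ± 0.17 in Pc/ph cells. Ribosomal protein genes gave 0.01 over 26, and cytochrome P450 genes gave -0.02 over 85. Among the latter, Cyp6a9 read 8.46, 7.71 and 7.74 in Pc/ph+PTIP cells, against 5.97, 7.24 and 7.16 in PTIP cells. In Pc/ph cells Cyp6a9 read 9.22, 7.95 and 8.25, against 8.33, 7.95 and 7.75 in control cells. Heat shock and stress genes were higher for 6 of 26, and Hsp68 had a difference of 0.49 ± 0.09 (adjusted p = 0.205) with pair differences of 0.53, 0.49 and 0.46.

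**Figure D5:**
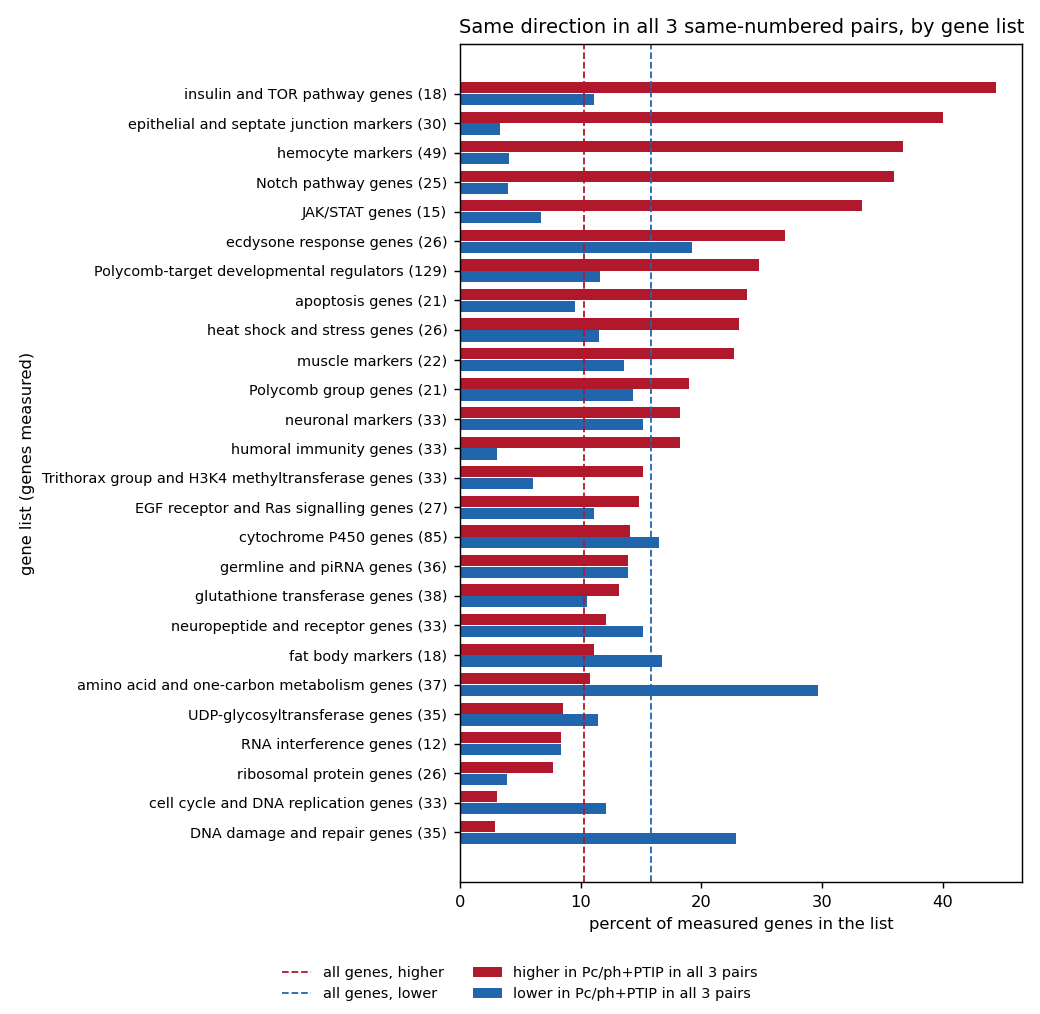
Percent of measured genes (horizontal axis) that were higher (red) or lower (blue) in Pc/ph+PTIP than in PTIP cells in all 3 same-numbered pairs, for each list with at least 10 measured genes (number in brackets). Dashed lines mark the same shares over all 11982 genes, 10.3% higher and 15.8% lower. Insulin and TOR pathway genes stand highest on the red bars, with 44.4%.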

How the data were processed

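The authors deposited 1 table of log2 signals for all arrays, with a value for each probe set. RMA and limma are named in the submitters' processing notes, without versions. No further normalization was applied. Of 18952 probe sets, 183 array controls were left out. The platform annotation gives 1 symbol for 13647 of the rest, several for 402 and none for 4720, and each gene was represented by its probe set with the highest mean over the 12 arrays. Groups and replicate numbers come from the titles.

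All 4 groups were fitted in limma 3.58.1 (R 4.3.3) with the replicate number as a block, and p-values were adjusted by Benjamini-Hochberg over all 18769 probe sets. The numbers were taken to pair the samples because deviations from the group means correlated at 0.489 to 0.88 in all 18 same-numbered pairs. Numbers 2 and 3 also correlated with each other, at 0.754 and 0.743 between PTIP and Pc/ph+PTIP arrays, against 0.755 and 0.775 for the same number, so these values set replicate 1 apart and do not tell 2 from 3. A batch of 2 levels, replicate 1 against the others, was among the alternatives. The interaction is the difference Pc/ph+PTIP minus PTIP, less the difference Pc/ph minus control. The fit was tested on simulated data. The number of arrays limits the precision.

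Named genes are the called ones, the targeted genes, the Hox genes, up to 4 called or the 2 most changed members of each of 28 gene lists, the 12 largest called interactions, and the largest changes in Pc/ph against control. Other genes with values were chosen after those were seen. The comparison and the lists were chosen with earlier results of these data known. Alternatives covered the block, the arrays fitted, a filter on dim probe sets, the normalization, an intensity trend and each array or replicate left out.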

Additional observations from a re-analysis of the deposited data

Results flagged for a closer look

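The response to Pc/ph dsRNA differed between cells with and without PTIP dsRNA for 29 genes, by limma's interaction term. Each value below is the log2 response in cells given PTIP dsRNA minus that in cells without PTIP dsRNA, with its SE (n = 3 arrays per group). All 29 kept their sign in each of the 3 replicate numbers. The same arrays gave the calls, so this agreement adds no separate support. Without replicate 2, or without replicate 3, 0 of the 29 were called.

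Genes higher in Pc/ph than in control cells, with a smaller difference in cells given PTIP dsRNA, were Esp at -3.93 ± 0.37, rib at -2.41 ± 0.24, disco-r at -1.88 ± 0.15, cad at -1.78 ± 0.28, Drat at -1.68 ± 0.20 and peb at -1.50 ± 0.12. Further down came disco at -1.49 ± 0.19, pnr at -1.49 ± 0.18, CG44251 at -1.25 ± 0.14, gsb-n at -1.14 ± 0.18, vir-1 at -1.10 ± 0.17 and the noncoding RNA lncRNA:alphagamma-element:CR32865 at -0.99 ± 0.14.

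CNMa, at 3.26 ± 0.40, had the larger difference in cells given PTIP dsRNA. Genes lower in Pc/ph than in control cells, with a smaller difference where PTIP dsRNA was given, were Cbs at 2.51 ± 0.36, CG4269 at 2.23 ± 0.14, CG14990 at 1.70 ± 0.26, fbp at 1.64 ± 0.21, Kank at 1.57 ± 0.15, CG9164 at 1.50 ± 0.19 and CG4914 at 1.40 ± 0.17. Smaller differences were those of CG31337 at 1.33 ± 0.20, fru at 1.24 ± 0.15, Mal-A5 at 1.19 ± 0.15, CG12290 at 1.15 ± 0.18 and l(1)G0469 at 1.15 ± 0.12. The smallest were the PDZ-domain gene bbg at 0.94 ± 0.14, CG9485 at 0.94 ± 0.13, Mos at 0.83 ± 0.11 and CG12768 at 0.79 ± 0.10. Of these 16 genes lower in Pc/ph than in control cells, 10 were also called lower in PTIP than in control cells.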

How the results depend on the processing

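Of the 6 probe sets called in Pc/ph+PTIP against PTIP, all 6 were also called with no replicate block, where the count was 6. The count was 10 with the replicate number as a random effect, 28 with only the 6 arrays of the comparison in the fit and 10 with an intensity trend. It ran from 4 to 7 when single arrays were left out and from 2 to 67 when a replicate number was left out of all groups, lowest without replicate 2 and highest without replicate 1. CG2233 was not called after quantile normalization. The interaction count of 35 was 1 without the replicate block, against 160 at an unadjusted p under 0.05, and 53 both with a random effect and with replicate 1 against the others as a batch. It ran from 9 to 80 over single arrays left out and from 0 to 261 over replicates left out. The 0 came without replicate 2 or 3, where limma's unadjusted p was under 0.05 for 517 and 496, and no other tool was run. All 29 interaction genes were called without replicate 1. The Pc/ph against control count of 287 was 37 without the replicate block and 559 with only its own 6 arrays. It ran from 134 to 376 over single arrays and from 43 to 1066 over replicates left out. Filtering dim probe sets and cyclic loess kept every count within 1.5 times. After quantile normalization the interaction count was 28, but only 14 of the 29 genes kept their call. The interactions of cad, pnr and CNMa were not called there (limma adjusted p = 0.201, 0.153 and 0.0745). Among named genes, Dfd gained a call with a random effect and with a batch of 2 levels. CG14642, CG6231, Dfd, Pc, amd and nuf gained it with only the 6 arrays, and CG14642, Dfd, Esp, Idgf1, Idgf2, Pc, amd, fng, nuf and wake without replicate 1. Genes chosen after their values were seen, such as bab2, ap and ci, were also called without replicate 1 and are not in this list. No named gene that was called reversed its sign. The causes of these changes were not tested. Signals near 5.57 are at background, and cad, pnr and CNMa lay close to it in PTIP cells, so signal there limits their fold changes.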

Other observations

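A few genes outside the lists and the comparisons above differed by at least 2-fold in all 3 pairs. Over all genes 13 were that much higher and 1, CG2233, that much lower. Besides the genes described, they include bowl, a zinc-finger gene of the odd-skipped family, which read 6.66, 7.19 and 6.65 in Pc/ph+PTIP cells, against 4.92, 5.51 and 5.42 in PTIP cells. CG9691 read 10.90, 7.43 and 7.74 in Pc/ph+PTIP cells and 7.46, 6.30 and 6.09 in PTIP cells, and CG14957 read 6.60, 6.67 and 6.95 in Pc/ph+PTIP cells and 5.31, 4.97 and 4.83 in PTIP cells. These genes were chosen after their values were seen, and none was called in the fit of all arrays, while all 3 were called without replicate 1.

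Of the 130 genes called lower in Pc/ph against control, 102 were also lower in Pc/ph+PTIP than in PTIP cells. Of the 130, 59 were lower in all 3 pairs, against 15.8% of all genes. In PTIP against control, 53 of the 130 were also called lower, with a median of -0.28 over the 130. Their median difference was -0.11 in cells given PTIP dsRNA and -0.83 in the other comparison. They were chosen on their size there, so this is a description.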
